A study of Mus musculus with 6 samples.

Results

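Levels of 10 genes of the Bcl2 family were followed in basal cells sorted from mouse esophageal epithelium. The genes were taken by symbol from the deposited table, and all 10 had a row among its 24016 usable genes. They comprise the pro-survival genes Bcl2, Bcl2l1 (Bcl-xL), Bcl2l2 (Bcl-w) and Mcl1, the multidomain pro-death genes Bak1 and Bok, and the BH3-only pro-death genes Bid, Bad, Bik and Bcl2l11 (Bim). The study compared 3 Krt15-positive libraries (CD29-high, GFP+) with 3 Krt15-negative libraries (CD29-high, GFP-). Every mouse carried Krt15-CrePR1, an RU486-inducible Cre recombinase driven by the Krt15 promoter, together with the R26 mTomato/mGFP reporter, and every mouse received 1 mg of RU486 with sorting 24 h later. The group names therefore refer to the GFP reporter and not to the Krt15 level, and a cell with an active promoter but no recombination is sorted as negative. No untreated library was analysed here, so RU486 exposure is shared by both groups.

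The Bcl2 family decides whether the outer mitochondrial membrane is breached, the step that releases cytochrome c and starts the caspase cascade. Pro-survival proteins hold the membrane-piercing effectors in check. BH3-only proteins respond to stress and either occupy the groove of the pro-survival proteins or activate the effectors directly. Much of this control acts on the proteins, through phosphorylation, cleavage and degradation, which transcript levels do not measure.

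The feature that joins the family is the BH3 helix, whose core is a leucine, 3 variable residues, a small residue and an aspartate. Coding sequence was read from the longest complete coding transcript of each member in GENCODE M21 (GRCm38), an annotation of another build than the mm9 build named in the submitters' processing notes, and no coordinates are given for this reason. The core was present in 9 of the 10 members, against 20.1% of the 6935 proteins of 150 to 331 residues that hold it at least once. Bcl2l2 has a methionine in the place of the leucine, and Bad a serine in the place of the glycine that the other 9 share. The stretches of 5 members that the results below turn on, or that depart from the core, are printed 5′ to 3′ with the codons of the first residue, the small residue and the aspartate in capitals.
Mcl1: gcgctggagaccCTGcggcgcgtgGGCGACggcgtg
Bcl2l2: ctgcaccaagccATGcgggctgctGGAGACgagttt
Bok: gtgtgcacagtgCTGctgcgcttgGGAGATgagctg
Bad: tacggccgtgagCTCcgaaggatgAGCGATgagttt
Bcl2l11: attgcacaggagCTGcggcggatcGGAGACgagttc

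Levels are FPKM, fragments per kilobase of transcript, scaled to the mapped fragments of each library, so they can be compared between genes. Spacing of the lowest values gave an approximate depth of 27500000 to 34000000 fragments in the Krt15-positive libraries and 29100000 to 41600000 in the Krt15-negative ones, which puts 1 fragment of a 2-kb transcript at 0.0147 to 0.0182 FPKM in the Krt15-positive libraries and 0.012 to 0.0172 FPKM in the Krt15-negative ones. The Krt15-positive libraries had 7072 to 9194 genes at 1 FPKM or more and the Krt15-negative ones 3247 to 7934, with the Krt15-negative replicate 1 library lowest. A listed 0 need not mean that a gene was silent, since of 16 housekeeping genes 2 had no signal in Krt15-negative replicate 1 and 2 in Krt15-negative replicate 2. The cause of these zeros was not tested. Of the 10 basal keratinocyte markers, such as Krt5, Krt14 and Trp63, all reached 1 FPKM in 5 libraries and 8 did in the Krt15-negative replicate 1 library, while 9 of 10 suprabasal markers did so in each Krt15-positive library and 7 to 9 in the Krt15-negative ones. The suprabasal sum was 8947 to 53200 FPKM in Krt15-positive and 9301 to 37990 FPKM in Krt15-negative libraries. The basal sum was 3898 to 14140 and 3960 to 11140 FPKM, and lay below the suprabasal one in each library. Krtdap alone was at 7254, 13640 and 41290 FPKM in the Krt15-positive libraries, against 33630, 22530 and 0 FPKM in the Krt15-negative ones. It was most of the suprabasal sum wherever it was above 0, so the order of the basal and suprabasal sums rests in part on this gene. Krt4, another suprabasal marker, was at 606 to 6295 FPKM over all libraries. Suprabasal transcripts were thus abundant in the libraries called basal here. Most fibroblast markers moved with the groups: 1 to 2 of 10 reached 1 FPKM in the Krt15-positive libraries (summed level 71.3 to 179 FPKM) and 7 to 10 of 10 in the Krt15-negative ones (183 to 794 FPKM). Dcn did not, and it supplied nearly all of the Krt15-positive sums. It was at 167, 176 and 71.1 FPKM in the Krt15-positive libraries, against 13.9, 268 and 457 FPKM in the Krt15-negative ones, and the groups overlapped. Of 6 endothelial markers, all were listed at 0 in the Krt15-positive libraries, and their summed level in the Krt15-negative ones was 0 to 4.05 FPKM.

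Bad was the most abundant member and stood above every other member in all 6 libraries. Its mean over the 6 libraries was 140 ± 42.6 FPKM (SD, n = 6), followed by Bok at 39.3 ± 22.4 and Mcl1 at 29.6 ± 17.5. Bok exceeded Mcl1 in 4 of 6 libraries, and Mcl1 exceeded Bik in 5, so Bok and Mcl1 did not differ beyond their spread. Bik, Bid, Bcl2l1, Bcl2l2 and Bcl2l11 followed with means of 13, 6.09, 3.30, 2.44 and 1.94 FPKM, each listed at 0 in at least 1 library. Bcl2 and Bak1 were lowest, with means of 0.61 and 0.46 FPKM. Below Bik the order between neighbours changed from library to library, none standing above the next in more than 3 of 6.

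**Figure D1:**
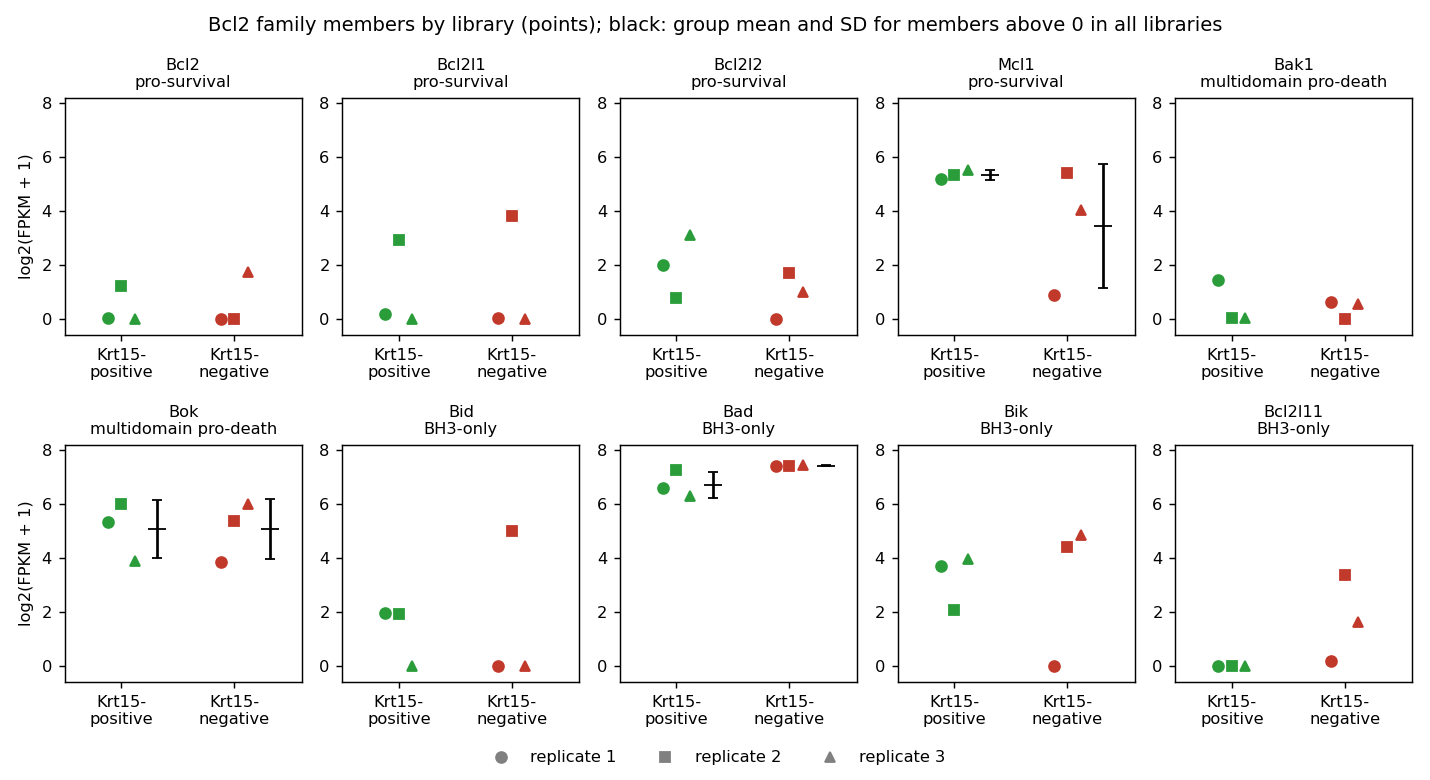
Level of each of the 10 members on the log2(FPKM + 1) scale (vertical axis) in the Krt15-positive (green) and Krt15-negative (red) libraries, with 1 marker shape per replicate number. Black bars give the group mean and SD for Mcl1, Bok and Bad, the members above 0 in all 6 libraries. Bad lies lower in all 3 Krt15-positive libraries, and Bcl2l11 is listed at 0 in all of them.

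Within each library the share of a member in the summed FPKM of all 10 does not depend on scaling between libraries. Pro-survival transcripts made up 20.1%, 17.8% and 33.1% of that sum in the Krt15-positive libraries, against 0.48%, 17.3% and 6.50% in the Krt15-negative ones. The groups did not overlap, although Krt15-positive replicate 2 and Krt15-negative replicate 2 differed by less than the spread between replicates (23.7 ± 8.27% in Krt15-positive and 8.09 ± 8.51% in Krt15-negative libraries, SD, n = 3 each). The share is given with no test. Undetected members do affect it: Krt15-negative replicate 1, at 0.48%, had 2 members at 1 FPKM or more and 4 listed at 0. Krt15-positive replicate 3 also had 4 listed at 0. The difference between the group means was 15.6 percentage points, and 11.8 without Krt15-negative replicate 1. Mcl1 supplied 82% to 91.7% of the pro-survival sum in the Krt15-positive libraries and 72.9% to 98.4% in the Krt15-negative ones. Without Mcl1 the pro-survival share was 2.06%, 3.75% and 6.65% in the Krt15-positive libraries, against 0.0079%, 5.35% and 1.20% in the Krt15-negative ones, and the groups overlapped. Without Bad it was 40.3%, 40.8% and 64.9% in the Krt15-positive libraries, against 5.89%, 36% and 16.6% in the Krt15-negative ones, with no overlap. Adding Bax, the effector of highest level, gave 9.94%, 11.3% and 22.5% in the Krt15-positive libraries against 0.30%, 11.3% and 3.63% in the Krt15-negative ones, and the groups overlapped. With 5 further pro-survival and 5 further pro-death genes of the family the groups overlapped as well. In these bulk libraries, fewer cells of a type and less RNA per cell cannot be told apart.

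**Figure D2:**
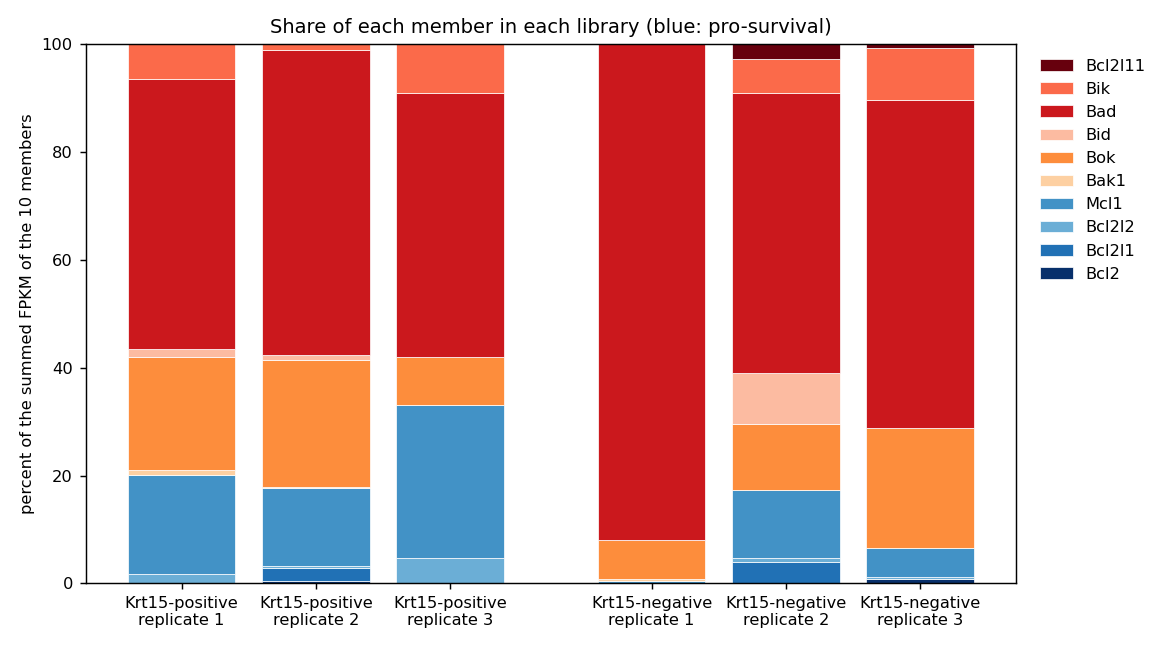
Stacked bars give the percent of the summed FPKM of the 10 members that each member supplied in each library, with pro-survival members in blue at the bottom. Bad fills 49% to 56.4% of the bar in the Krt15-positive libraries and 52% to 91.9% in the Krt15-negative ones.

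Among the pro-survival members, Mcl1, a short-lived protein that holds Bak1 and Bim, stood above the other 3 in all 6 libraries. Mcl1 was at 35.2, 39.3 and 45.4 FPKM in the Krt15-positive libraries, against 0.87, 41.4 and 15.5 FPKM in the Krt15-negative ones. The Krt15-positive values lay close together, whereas the Krt15-negative ones were far apart, and the groups overlapped. Subtracting the Krt15-negative from the Krt15-positive mean of log2(FPKM + 1) gave a difference of 1.90 (SE 1.24, 95% CI from -0.81 to 4.61, adjusted p = 0.79 with limma), within the replicate spread. All differences below are on that scale and in that direction. The Mcl1 difference stood 1.27 above the median difference of all genes tested, and 0.60 above it without Krt15-negative replicate 1. The difference itself was 0.62 without that library and 2.87 without replicate 2 of that group.

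Bcl2l2, which encodes Bcl-w, stood at 3.03, 0.72 and 7.62 FPKM in the Krt15-positive libraries, against 0, 2.29 and 0.98 FPKM in the Krt15-negative ones. The highest values were Krt15-positive, but replicate 2 ran the other way and the groups overlapped (difference 1.07, SE 1.05, 95% CI -1.22 to 3.35, limma adjusted p = 0.80). Without the Krt15-positive replicate 3 library the difference was 0.50, which is 0.25 below the median of all genes under the same omission. In the annotation named above, Bcl2l2 shares 594 bp of exon with Gm20521, a coding gene on the same strand. Gm20521 has no row among the usable genes, so reads of the shared stretch cannot be assigned between both here.

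Bcl2l1, which encodes Bcl-xL, was detected mainly in the replicate 2 libraries. Its level was 0.14, 6.60 and 0 FPKM in the Krt15-positive libraries, against 0.014, 13.1 and 0 FPKM in the Krt15-negative ones. Both groups thus held 1 library with a clear level (difference -0.24, SE 1.27, 95% CI -3.02 to 2.53, limma adjusted p = 0.96), and the difference turned to 1.03 when Krt15-negative replicate 2 was left out, and to 0.18 and 0.28 when Krt15-positive replicate 1 or 3 was. Bcl2, the founding member, stood at 0.029, 1.32 and 0 FPKM in the Krt15-positive libraries, against 0, 0.0064 and 2.31 FPKM in the Krt15-negative libraries. Its mean did not reach the 1 FPKM required for the test, and without that filter the difference was -0.16 (SE 0.61, limma adjusted p = 0.95). The lowest of these values, 0.0064 FPKM of a 7191-base transcript, amounts to very few fragments at these depths. Bcl2 shares 558 bp of exon with the antisense gene D630008O14Rik, which has no row among the usable genes.

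Of the multidomain pro-death members, Bok was present in every library and Bak1 was low. Bok, which can permeabilize mitochondria without the control of pro-survival proteins, stood at 40.1, 63.6 and 14.1 FPKM in the Krt15-positive libraries, against 13.4, 40.5 and 63.9 FPKM in the Krt15-negative ones. Both groups covered almost the same range, and the mean was 39.3 ± 24.8 FPKM in Krt15-positive and 39.3 ± 25.3 FPKM in Krt15-negative libraries (SD, n = 3 each). The difference of 0.017 (SE 1.03, 95% CI -2.23 to 2.26, limma adjusted p = 1.00) turned below 0 with median-of-ratios scaling (-0.45), with quantile normalization (-0.33) and with library weights (-0.58). The Bok difference also turned to -0.60 when Krt15-negative replicate 1 was left out and to -0.12 and -0.44 when Krt15-positive replicate 1 or 2 was, and it was 1.08 without both replicate 3 libraries.

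Bak1, an effector that forms pores in the outer membrane, stood at 1.70, 0.015 and 0.034 FPKM in the Krt15-positive libraries, against 0.55, 0 and 0.45 FPKM in the Krt15-negative ones. A single library passed 1 FPKM, the Krt15-positive replicate 1, and Bak1 did not enter the test (no filter: difference 0.11, SE 0.44, limma adjusted p = 0.95). Bak1 shares 614 bp of exon with Ggnbp1 on the opposite strand, which was at 0.072, 0 and 0 FPKM in the Krt15-positive libraries, against 3.40, 21.8 and 10.8 FPKM in the Krt15-negative ones. The other effector, Bax, was above Bak1 and above Bok in all 6 libraries, at 195, 155 and 75.6 FPKM in the Krt15-positive libraries and 113, 175 and 229 FPKM in the Krt15-negative ones. Bax differed by -0.32 (SE 0.68, limma adjusted p = 0.90), and Bad exceeded it in 2 of 6 libraries.

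Among the BH3-only members, Bad and Bcl2l11 were lower in all 3 Krt15-positive libraries than in any Krt15-negative one, and neither passed the test. Of the 8 members tested, these 2 had groups that did not overlap in this direction and 0 had them in the other. Over the 9423 genes tested, the groups did not overlap with Krt15-positive lower for 2.44%, and with Krt15-positive higher for 8.85%. Bcl2l11 reached the test through the Krt15-negative libraries alone, so no excess of members is read from these shares.

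Bad, whose protein is kept inactive by phosphorylation downstream of survival signals, stood at 95.6, 152 and 78.3 FPKM in the Krt15-positive libraries, against 170, 171 and 176 FPKM in the Krt15-negative ones. The Krt15-negative values were nearly equal (172 ± 3.65 FPKM, SD, n = 3), and the Krt15-positive ones were spread out below them (109 ± 38.7 FPKM, SD, n = 3). The difference was -0.72 (SE 0.65, 95% CI -2.14 to 0.71, limma adjusted p = 0.79). Against the median of all genes it stood at -1.34, and at -0.75 when Krt15-negative replicate 1 was left out, an omission that moves the median of all genes. Bad differed by -0.82, -0.16 and -1.16 in the replicate 1, 2 and 3 pairs, and by -0.73 without Krt15-negative replicate 1. The difference was -0.32 with upper-quartile and -1.21 with median-of-ratios scaling. Bad shares 524 bp of exon with Gpr137, a gene of the opposite strand, and the library chemistry does not mark strand, so their shared reads cannot be told apart. Gpr137 was at 8.62, 8.90 and 25.2 FPKM in the Krt15-positive libraries, against 0, 1.77e-15 and 2.69 FPKM in the Krt15-negative ones. Its part in the Bad values was not tested.

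Bcl2l11, whose product Bim binds all pro-survival proteins and can activate Bax and Bak, was listed at 0 in all 3 Krt15-positive libraries, against 0.15, 9.41 and 2.09 FPKM in the Krt15-negative ones. The Krt15-negative values were themselves far apart, and no fold is given against a group listed at 0. The difference was -1.74 (SE 0.96, 95% CI -3.83 to 0.36, limma adjusted p = 0.79), or -0.91 without Krt15-negative replicate 2 and -2.50 without replicate 1 of that group. It was -4.12 with a pseudocount of 0.1 and -0.69 with one of 5. Bcl2l11 reached the mean of 1 FPKM for the test through the Krt15-negative libraries alone, so a difference in this direction was a condition of its being tested. Being listed at 0 in every Krt15-positive and above 0 in every Krt15-negative library was seen for 0.17% of the genes tested. That pattern was taken from the values of Bcl2l11 itself, so the share is a description and not a test. Of the leukocyte markers, 2 to 6 of 10 reached 1 FPKM in the Krt15-positive ones and 2 to 8 did in the Krt15-negative ones, with summed levels of 126 to 7315 FPKM in Krt15-positive and 542 to 1022 FPKM in Krt15-negative libraries. Most of the Krt15-positive replicate 1 sum was Lyz2, at 7279 FPKM. The pan-leukocyte gene Ptprc was at 0, 0.010 and 0.0062 FPKM in the Krt15-positive libraries, against 0.013, 3.95 and 0.062 FPKM in the Krt15-negative ones. Cd52, a surface protein of lymphocytes, was at 0, 5.45 and 0 FPKM in the Krt15-positive libraries, against 0, 237 and 49 FPKM in the Krt15-negative ones. Krt15-negative replicate 2, where Bcl2l11 was highest, was also the highest library for 6 of the 10 leukocyte markers. Of the other 4, Tyrobp was highest in Krt15-negative replicate 1, H2-Ab1 and Cd3e in Krt15-negative replicate 3, and Lyz2 in Krt15-positive replicate 1. Tyrobp was at 0, 20.2 and 27.65 FPKM in the Krt15-positive libraries, against 203, 124 and 31 FPKM in the Krt15-negative ones. H2-Ab1 was at 35.9, 40.7 and 69.4 FPKM in the Krt15-positive libraries, against 0, 56.1 and 222 FPKM in the Krt15-negative ones. Cd3e, of the T cell receptor complex, was listed at 0 in 5 of the 6 libraries. The part of these cells, or of the fibroblast markers given above, in the Bcl2l11 values was not tested.

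Bid, which links death receptors to mitochondria once caspase-8 has cut it, was at 2.88, 2.81 and 0 FPKM in the Krt15-positive libraries, against 0, 30.9 and 0 FPKM in the Krt15-negative ones. A single Krt15-negative library held nearly all of that group's signal (difference -0.37, SE 1.41, 95% CI -3.45 to 2.71, limma adjusted p = 0.95), and the difference turned to 1.30 without it and to 0.28 without Krt15-positive replicate 3. Bid also overlaps 628 bp of exon of Bcl2l13 on the other strand, which was at 0.99, 5.05 and 3.85 FPKM in the Krt15-positive libraries, against 0, 0.027 and 2.91 FPKM in the Krt15-negative libraries.

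Bik, a BH3-only protein of the endoplasmic reticulum, was at 12.2, 3.27 and 14.5 FPKM in the Krt15-positive libraries, against 0, 20.1 and 28 FPKM in the Krt15-negative ones. The Krt15-negative values lay on both sides of the Krt15-positive ones (difference 0.17, SE 1.43, 95% CI -2.96 to 3.31, limma adjusted p = 0.98). The Bik difference turned to -1.37 when Krt15-negative replicate 1 was left out, and to -0.061 and -0.18 when Krt15-positive replicate 1 or 3 was.

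Of the 10 members, 8 entered the test, and 0 were called at an adjusted p below 0.05 with limma, higher or lower in Krt15-positive cells. The background was the same: 0.0% of the 9423 genes tested were called in either direction, and the smallest adjusted p over all genes was 0.40. At an unadjusted limma p below 0.05 there were 0 members and 370 genes (3.93%). The differences of the 8 members were above 0 for 4 and below 0 for 4, with a median of -0.11, beside a median of 0.63 over all genes tested, of which 6467 were above 0 and 2956 below. The members' median was 0.18 with upper-quartile scaling, -0.80 without Krt15-negative replicate 1 and 0.93 without Krt15-negative replicate 2, so its side of 0 rests on single libraries. The median of all genes was 0.85 with upper-quartile scaling, 0.43 with median-of-ratios scaling, 0.15 with quantile normalization and 0.021 without Krt15-negative replicate 1. Without that library 0 members were called as well. The exact 2-sided permutation p was 0.10 for Bad and for Bcl2l11, the smallest that 3 libraries against 3 can give. Every gene whose groups do not overlap gets this value. Such genes were 2.44% of those tested with Krt15-positive lower and 8.85% with Krt15-positive higher. The value thus restates the lack of overlap of Bad and Bcl2l11 and adds no support to it.

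**Figure D3:**
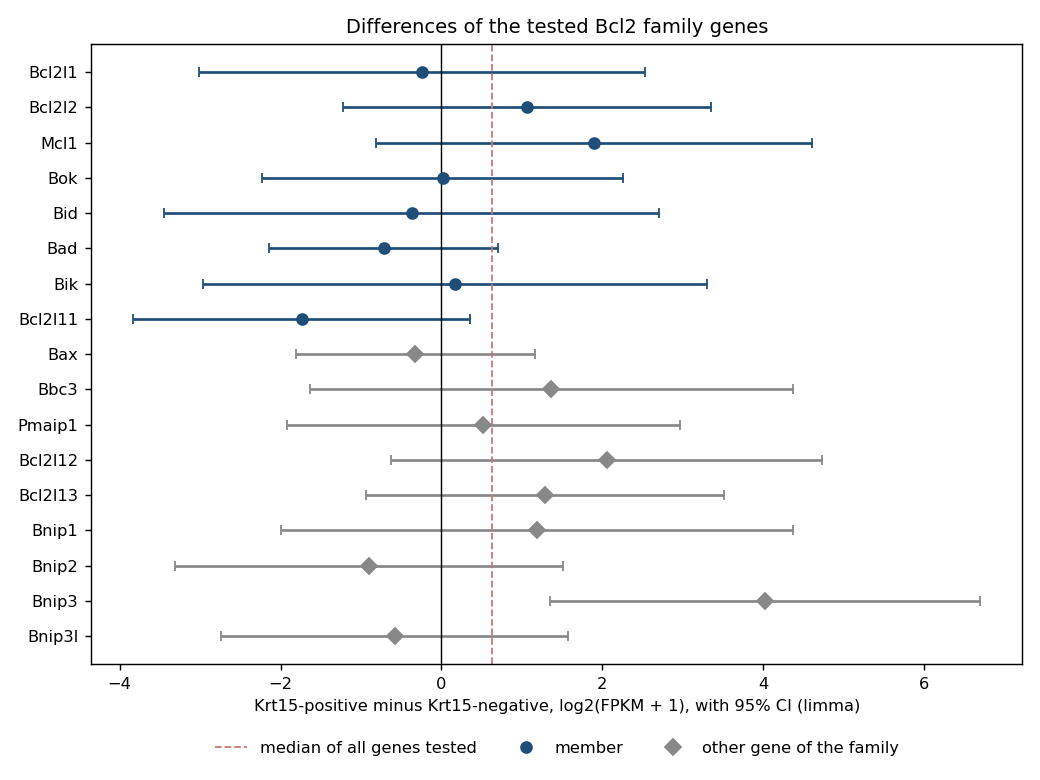
Points give the difference, Krt15-positive minus Krt15-negative, on the log2(FPKM + 1) scale for the 8 members tested (blue) and 9 other genes of the family (grey), with bars for the 95% confidence interval from limma. All 8 intervals of the members include 0, and the dashed line marks the median of all genes tested, 0.63.

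The direction for Mcl1 and Bcl2l2 was kept under the 18 alternatives, but other filters and the replicate block leave these differences unchanged. The median of all genes was above 0 in each setting as well. Measured against that median, Bcl2l2 turned to -0.25 without Krt15-positive replicate 3 and to -0.45 without both replicate 3 libraries. Mcl1 stayed above that median in each setting. The direction of Bad was kept under each scaling tried, and with libraries left out its groups, which do not overlap, fix it. For Bcl2l11, listed at 0 in every Krt15-positive library, the direction could not turn under any alternative, so it says nothing of stability. The direction of Bcl2l1, Bok, Bid, Bik and the untested Bak1 turned under at least 1 scaling, weighting or pseudocount and when single libraries were left out. That of Bcl2, also untested, turned only when libraries were left out.

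**Figure D4:**
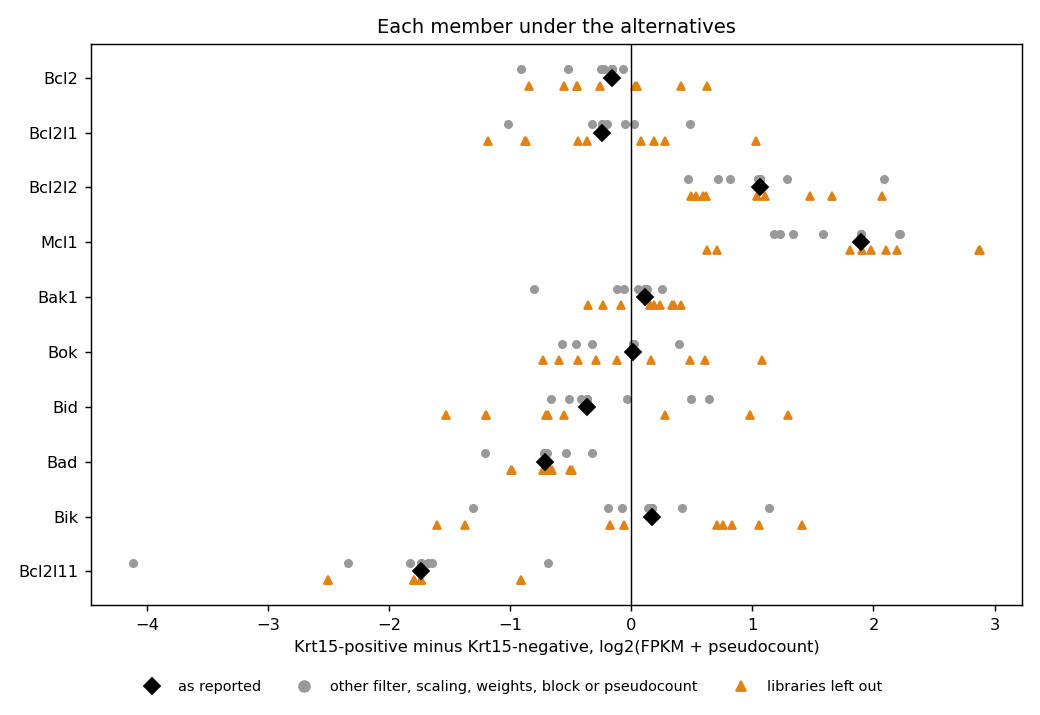
Each row shows the difference, Krt15-positive minus Krt15-negative, for 1 member as reported (black diamond), under other filters, scalings, weights, pseudocounts or the replicate block (grey circles), and with libraries left out (orange triangles). Mcl1 ranges between 0.62 and 2.88 and Bad between -1.21 and -0.32, whereas Bcl2, Bcl2l1, Bak1, Bok, Bid and Bik lie on both sides of 0.

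Other genes of the family were described from a list of 18. Of these, 9 reached the test, 0 were called, 6 had differences above 0 and 3 below (median 1.19), and 5 were listed at 0 in all 6 libraries. Bnip3, a mitophagy receptor with a BH3-like stretch, was at 34.2, 36.8 and 28.5 FPKM in the Krt15-positive libraries, against 0.020, 0 and 7.91 FPKM in the Krt15-negative ones (difference 4.02, SE 1.22, limma adjusted p = 0.79). Its groups did not overlap, and nor did those of Bcl2l12, a divergent relative, at 20.9, 21.4 and 39.4 FPKM in the Krt15-positive libraries, against 0.39, 16.2 and 10.6 FPKM in the Krt15-negative libraries. Over all genes tested, 8.85% had groups that did not overlap with Krt15-positive higher. The more abundant Bnip3l, a close relative of Bnip3, was at 37.2, 25.2 and 10.7 FPKM in the Krt15-positive libraries, against 48.6, 20.3 and 36.4 FPKM in the Krt15-negative libraries (difference -0.58, SE 0.98). Bnip1, a vesicle-fusion protein, was at 29.6, 36.1 and 18.9 FPKM in the Krt15-positive libraries, against 0.017, 34.1 and 52.5 FPKM in the Krt15-negative libraries. Bcl2a1b, a pro-survival gene of blood cells named after its values were seen, was at 0, 0.015 and 0 FPKM in the Krt15-positive libraries, against 0.052, 1.84 and 0.51 FPKM in the Krt15-negative libraries. It has near-identical copies between which reads can be divided, and its mean did not reach the test.

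Downstream of the members, 16 of 19 genes of the mitochondrial death machinery were tested and 0 were called, with 11 differences above 0 and 5 below (median 0.53). Cytochrome c (Cycs) was abundant, at 192, 151 and 207 FPKM in the Krt15-positive libraries, against 269, 176 and 247 FPKM in the Krt15-negative ones. The channel genes Vdac2 and Vdac3 differed by 0.0041 (SE 0.69) and -0.26 (SE 0.75). Diablo, which relieves the inhibition of caspases, was at 37.8, 31.7 and 53.5 FPKM in the Krt15-positive libraries, against 0, 15.1 and 23.4 FPKM in the Krt15-negative libraries, with no overlap (difference 2.49, SE 1.31, limma adjusted p = 0.79). A lack of overlap in this direction was seen for 8.85% of the genes tested. Htra2, a protease released with it, was at 15.1, 45.2 and 4.31 FPKM in the Krt15-positive libraries, against 0, 0.014 and 26.1 FPKM in the Krt15-negative libraries. Apaf1, the scaffold of the apoptosome, named after its values were seen, was listed at 0 in 5 of the 6 libraries and stood at 0.017 FPKM in the Krt15-positive replicate 2 library.

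All 9 genes of the death receptor pathway, which reaches the family through Bid, were tested and 0 were called (7 above 0, 2 below, median 0.67). Tradd, an adaptor of the TNF receptor, was at 37.2, 56.8 and 22.9 FPKM in the Krt15-positive libraries, against 0, 93.4 and 27.8 FPKM in the Krt15-negative ones. The receptor gene Tnfrsf1a was at 23.2, 21.2 and 49.9 FPKM in the Krt15-positive libraries, against 1.80, 80.5 and 7.71 FPKM in the Krt15-negative libraries. Casp8, whose product cuts Bid, was at 0, 16.3 and 26.8 FPKM in the Krt15-positive libraries, against 0.015, 17.4 and 11.2 FPKM in the Krt15-negative libraries. In each of these 3 genes the Krt15-negative replicate 2 library stood above at least 2 of the 3 Krt15-positive ones. The genes of smallest p were Fas, a death receptor (1.92, SE 1.28), and Ripk1, a kinase of its signalling complex (1.39, SE 0.96), both at an adjusted p of 0.79 with limma.

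Of 19 genes that act on the members by transcription, binding or degradation, 18 were tested and 0 were called (14 above 0, 4 below, median 0.45). Sfn, an epithelial protein of the family that holds phosphorylated Bad, was at 626, 1888 and 1265 FPKM in the Krt15-positive libraries, against 595, 1480 and 843 FPKM in the Krt15-negative ones (difference 0.34, SE 0.47). Its relative Ywhaz was at 142, 227 and 169 FPKM in the Krt15-positive libraries, against 240, 264 and 156 FPKM in the Krt15-negative libraries. Dynll1, the dynein light chain that tethers Bim, was at 653, 513 and 992 FPKM in the Krt15-positive libraries, against 1023, 709 and 1326 FPKM in the Krt15-negative libraries. Sfn was thus above Bad, and Dynll1 above Bcl2l11, in all 6 libraries, whereas Ywhaz lay below Bad in Krt15-negative replicate 3. Akt1, a kinase that acts on Bad, was at 12.3, 75.9 and 22.3 FPKM in the Krt15-positive libraries, against 0.079, 14.5 and 9.12 FPKM in the Krt15-negative libraries (difference 2.38, SE 1.31, limma adjusted p = 0.79). Foxo1, a transcription factor that can drive Bcl2l11, was at 6.66, 4.04 and 13.2 FPKM in the Krt15-positive libraries, against 0.018, 2.14 and 3.22 FPKM in the Krt15-negative libraries, with no overlap. The share of genes tested with no overlap in this direction was 8.85%.

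The genes whose log2(FPKM + 1) values followed Bad most closely over the 6 libraries were H2afz, Grpel1 and Rpf2, with Pearson correlations of 0.98, 0.97 and 0.97 among 9422 genes compared. H2afz, a histone variant gene, was at 399, 612 and 314 FPKM in the Krt15-positive libraries, against 844, 746 and 717 FPKM in the Krt15-negative ones. For Bcl2l11, the member of smallest p, they were Rgs1, Lrrc29 and Gtf2e1, with correlations of 0.999, 0.998 and 0.998. Rgs1, a regulator of G-protein signalling known from lymphocytes, was listed at 0 in all 3 Krt15-positive libraries, against 0.028, 82.2 and 7.10 FPKM in the Krt15-negative ones. These likenesses rest on the same 6 libraries, which differ in depth and in genes detected, and for Bcl2l11 on the Krt15-negative replicate 2 and 3 libraries.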

How the data were processed

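RNA was measured in 6 libraries, which per the labels' protocols were made from the sorted cells without RNA extraction, by SMART-Seq v4. The authors deposited 1 table of FPKM values; its name speaks of counts, but 58345 values are not whole. The mm9 build, STAR 2.5, Cufflinks 2.2.1 and DESeq2 are named per the submitters' processing notes, with no role or order. The annotation, the filters and the use of strand were not given in the sources used here. Of 24043 rows, 27 whose symbol had become a date were left out.

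A pseudocount of 1 was added before taking log2. The 9423 genes whose mean reached 1 FPKM were fitted with limma 3.58.1 in R 4.3.3 (mean-variance trend, group as the only term, all 6 libraries), with Benjamini-Hochberg adjustment over all of them and a threshold of 0.05. Such fold changes understate changes of low genes. Depth was estimated from the single-fragment step in 1877 genes with 1 annotated coding transcript, and is approximate; it covers counting only.

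The members and lists were chosen with earlier results of these data known, and are described by counts and medians. Named genes were all members and, per list on cell death, the 3 of highest mean and the 2 of smallest p; Bcl2a1b, Apaf1 and the cell type markers given by name were chosen after their values were seen; likeness was taken for the member of highest mean and that of smallest p. The labels do not state separate animals for the replicates, so p-values reflect only the spread among libraries, possibly a technical one. Alternatives were other pseudocounts, filters, scalings, library weights, a replicate block and libraries left out.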

Additional observations from a re-analysis of the deposited data

How the results depend on the processing

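Under 18 alternatives to the fit, 0 members and 0 genes of the other 4 lists on cell death were called, and over all genes the count of 0 became 8, all lower in Krt15-positive cells, with library weights. The unadjusted count over all genes moved between 182 and 1160. Mcl1 and Bcl2l2 kept their direction in all 18, though other filters and the replicate block could not change their differences. Bad did too, but with libraries left out its non-overlapping groups fix the sign, as the zeros of Bcl2l11 do in every setting. Requiring 1 FPKM in at least 3 libraries left Bcl2l11 and Bcl2l1 untested. With library weights the difference turned to 0.48 for Bcl2l1, -0.58 for Bok, 0.65 for Bid and -1.30 for Bik. The Bok difference was -0.45 with median-of-ratios scaling and -0.33 with quantile normalization, which gave -0.074 for Bik. A pseudocount of 0.1 turned Bcl2l1 to 0.023 and Bid to 0.49, and a pseudocount of 5 turned Bik to -0.19. Bak1, which did not enter the test, turned to -0.81 with quantile normalization, -0.061 with median-of-ratios scaling and -0.12 with a pseudocount of 0.1. With libraries left out, Bak1 moved between -0.35 and 0.41 and Bcl2 between -0.84 and 0.62. Leaving out libraries moved the members' median between -0.80 and 0.93, Bcl2l1 between -1.19 and 1.03, Bok between -0.73 and 1.08, Bid between -1.53 and 1.30 and Bik between -1.60 and 1.41. The cause of these turns was not tested. The pro-survival share of the summed FPKM differed by 15.6 percentage points, by 10.1 to 23.1 with libraries left out, and, in alternatives chosen after seeing the data, by 29.1 without Bad and 1.96 without Mcl1, which remove the most abundant gene of each side.

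The replicate numbers, which share a prefix in the sample names, were tried as a block: 0 members and 0 genes were called with the replicate block, as without it. Same-numbered libraries deviated from their group means with correlations of 0.13, 0.17 and 0.0090 for replicates 1, 2 and 3. For replicates 1 and 2 the same-numbered library gave the highest value. The Krt15-positive replicate 3 library reached 0.018 with Krt15-negative replicate 1, hardly more than with its own number. These correlations do not settle the pairing, and the labels do not state it, so it was not taken as given. Listed zeros, some of them in a shallowly detected library, and levels near 1 fragment limit what can be said of Bcl2, Bak1, Bcl2l1, Bid and Bcl2l11. Bik and Bcl2l2 were listed at 0 in Krt15-negative replicate 1. Without that library the Bik difference moved from 0.17 to -1.37, and that of Bcl2l2 from 1.07 to 0.61.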
